A study of Mus musculus with 29 samples.

Results

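The 6 genes described here encode C-type lectin receptors of mouse macrophages: Clec4d (MCL), Clec4e (Mincle), Clec4n (Dectin-2), Clec4b1 (DCAR), Clec4a2 (DCIR) and Clec5a (MDL-1). They were taken from a list of lectin names, and a probe set was used when the array annotation gave it to exactly 1 of these genes, which held for 9 of 22690 probe sets. The 6 genes were among 12393 genes with such a probe set, and all 6 passed the filter on low values that left 7153 genes for testing. A further probe set, annotated to both Clec4b1 and Clec4a2, was not used.

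Macrophages grown from the marrow of 8-week-old wild-type mice (C57BL/6) were measured on 29 Affymetrix arrays. All cells spent 7 days with CSF-1 (10 ng/ml), the growth factor that drives macrophage differentiation, in Teflon bags, and CSF-1 at 10 ng/ml stayed in the medium during the 24 h of stimulation. The groups were IL-4+IL-10 (3 arrays), IL-4+IL-6 (5 arrays), IL-10 (3 arrays), IL-6 (5 arrays), IL-4 (5 arrays) and unstimulated cells given CSF-1 alone (8 arrays), with each cytokine at 10 ng/ml. No label says that replicates are separate animals or cultures, and p-values then measure only the spread between these arrays, which may be technical. The cells are a cultured, CSF-1 grown model, and no group was given a ligand of these lectins.

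C-type lectin receptors bind sugars and glycolipids of fungi, mycobacteria and damaged cells. Mincle, MCL, Dectin-2 and DCAR have short tails and signal through the FcR gamma chain (Fcer1g), MDL-1 signals through the adapters DAP12 (Tyrobp) and DAP10 (Hcst), and the kinase Syk acts downstream of FcR gamma and DAP12. DCIR differs in that it carries an inhibitory motif in its own tail and recruits phosphatases. In the reference order of protein-coding genes on chromosome 6, Clec4b1, Clec4a2, Clec4b2, Clec4n, Clec4d and Clec4e follow each other without another such gene between them. Clec5a lies elsewhere on the same chromosome.

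The promoters of 3 cluster genes are shown because their genes differed in how they moved with IL-4: Clec4e and Clec4d were lower and Clec4b1 was higher. Each sequence is the 250 bases before the gene's start (RefSeq, GRCm38.p6), written 5′ to 3′ along the gene's strand. Capitals mark AGAGGAA or its reverse complement TTCCTCT, a core of sites of the macrophage factor PU.1 and other ETS factors.
Clec4e, chr6:123289872-123290121, minus strand: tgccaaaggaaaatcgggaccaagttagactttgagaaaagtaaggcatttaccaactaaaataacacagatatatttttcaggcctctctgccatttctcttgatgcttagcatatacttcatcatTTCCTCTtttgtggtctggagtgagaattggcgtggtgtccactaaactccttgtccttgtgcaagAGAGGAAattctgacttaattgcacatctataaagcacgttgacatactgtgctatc
Clec4d, chr6:123261857-123262106, plus strand: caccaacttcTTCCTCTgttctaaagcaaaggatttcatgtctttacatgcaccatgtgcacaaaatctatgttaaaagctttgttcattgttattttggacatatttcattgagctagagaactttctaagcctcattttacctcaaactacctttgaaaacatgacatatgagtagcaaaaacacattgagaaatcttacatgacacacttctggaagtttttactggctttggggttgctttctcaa
Clec4b1, chr6:123049712-123049961, plus strand: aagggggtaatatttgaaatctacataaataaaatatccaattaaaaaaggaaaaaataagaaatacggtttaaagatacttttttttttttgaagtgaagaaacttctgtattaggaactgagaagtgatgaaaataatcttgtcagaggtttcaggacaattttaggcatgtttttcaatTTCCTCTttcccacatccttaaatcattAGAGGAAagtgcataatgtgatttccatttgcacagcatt

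Promoters of 5 of the 6 genes were matched, all but that of Clec4n. The letters AGAGGAA, on either strand, stood in 4 of the 5 (Clec4d, Clec4e, Clec4b1 and Clec5a) and in 8.65% of 27025 mouse promoters of the same length. The STAT motif TTCNNNGAA stood in 1 of the 5, that of Clec4a2, and in 7.18% of all promoters. The C/EBP motif TTGCNNAA stood in that of Clec4e and in 9.55%. The AP-1 motif TGANTCA (6.87% of all) had no match in the 5. Matches are a description of these letters, and the motifs may overlap.

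All values below are log2 intensities of 1 probe set per gene, the one with the highest mean, so levels are compared between groups and not between genes. Differences were tested with limma over all 7153 genes with Benjamini-Hochberg adjustment, and called means an adjusted p below 0.05. The replicate numbers divide the arrays into a first set (unstimulated replicates 1 to 5, IL-4, IL-6 and IL-4+IL-6) and a second set (unstimulated replicates 6 to 8, IL-10 and IL-4+IL-10). The labels do not name these sets. Among the unstimulated arrays, 1033 genes (14.4%) differed between the sets in a limma fit of those arrays, Clec4e among them, at 10.10 ± 0.08 in replicates 6 to 8 and 9.30 ± 0.19 in replicates 1 to 5 (SD, n = 3 and 5, adjusted p = 0.000771). The other 5 lectin genes were also higher in the second set, by 0.09 to 0.32, and were not called. In that limma fit Clec4a2 and Clec4d lay close to the limit (adjusted p = 0.0521 and 0.0565). Macrophage markers were high on all arrays, with a mean over 9 genes between 12.17 and 13.25. Arg1, a target of IL-4 signalling, averaged 11.58 with IL-4 and 3.83 in unstimulated cells, and Socs3, a target of STAT3, was 4.95 ± 0.11 higher with IL-6 and 5.64 ± 0.13 higher with IL-10 than without (log2 difference ± SE).

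Against all 8 unstimulated arrays, IL-4 alone lowered Clec4d, Clec4e and Clec4n by 4.28- to 5.56-fold and raised Clec4b1, Clec4a2 and Clec5a by 1.25- to 1.89-fold. All 6 genes were called, where 59.5% of all genes tested were called, 27.6% higher and 31.9% lower. All IL-4 arrays are of the first set. Within it the falls were near equal, at -2.18 ± 0.18 for Clec4e, -2.06 ± 0.17 for Clec4n and -2.04 ± 0.07 for Clec4d (log2 difference ± SE). The rises there were 0.96 ± 0.07 for Clec4b1, 0.39 ± 0.04 for Clec4a2 and 0.53 ± 0.08 for Clec5a. All 6 were called within the set too, as were 60.6% of all genes tested.

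Clec4e, the Mincle receptor for mycobacterial cord factor, had 7.16, 7.31, 7.55, 7.03 and 6.56 on the IL-4 arrays, against a lowest value of 9.12, a median of 9.47 and a highest of 10.19 on the 8 unstimulated arrays. Every IL-4 array lay below every unstimulated array. The log2 difference was -2.48 ± 0.19 (SE, limma adjusted p = 7.76e-12). Clec4n, the Dectin-2 receptor for fungal mannans, had 7.52, 7.33, 7.03, 7.03 and 6.80 with IL-4, against 8.85, 9.43 and 9.62 as the lowest, median and highest unstimulated value. The groups were again apart, by -2.18 ± 0.16 on the log2 scale (adjusted p = 5.69e-12). These IL-4 levels lie near the median of all values on the arrays (6.99), and the second probe sets of both genes lay below it with IL-4. Signal over background was not given, so the size of these falls may be limited at the low end, which was not tested.

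Clec4d, the MCL partner of Mincle, had 11.21, 11.24, 11.46, 11.10 and 11.23 with IL-4, against 13.24, 13.32 and 13.47 as the lowest, median and highest unstimulated value. It fell by 2.10 ± 0.07 (adjusted p = 1.53e-19), and remained well above the array median. Its unstimulated level was near the top of the array scale, whose highest value was 15.13.

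Clec4b1, the DCAR receptor for mycobacterial mannosides, moved the other way. It had 11.17, 10.98, 10.70, 10.88 and 10.69 with IL-4, against 9.87, 9.94 and 10.12 as the lowest, median and highest unstimulated value, a difference of 0.92 ± 0.07 (adjusted p = 1.19e-11). Clec4a2, the inhibitory DCIR, averaged 12.69 ± 0.06 with IL-4 and 12.37 ± 0.12 in unstimulated cells (SD, n = 5 and 8, log2 difference 0.32 ± 0.05, adjusted p = 3.62e-06). Clec5a averaged 8.94 ± 0.08 and 8.48 ± 0.16 in the same groups (0.46 ± 0.07, adjusted p = 2.73e-06). None of these 3 genes overlapped between the IL-4 and the unstimulated arrays, and over all 6 genes the groups did not overlap, as held for 35.0% of all genes tested.

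**Figure D1:**
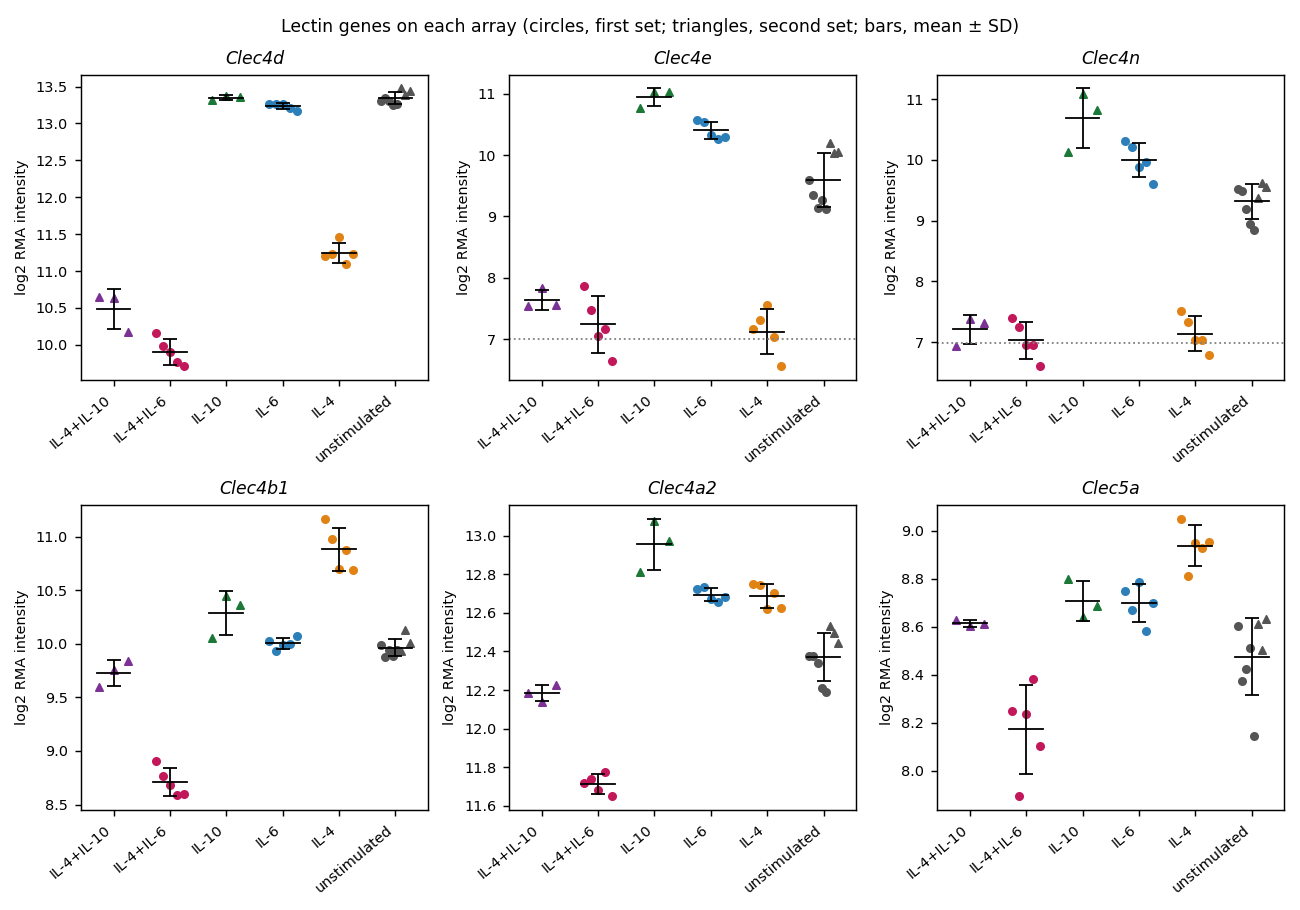
Log2 RMA intensity of the 6 lectin genes on each of the 29 arrays, by stimulation, with circles for the first set, triangles for the second, bars for the mean ± SD and a dotted line at the median of all values (6.99). Clec4d, Clec4e and Clec4n are low in all 3 groups with IL-4, whereas Clec4b1, Clec4a2 and Clec5a are highest or raised with IL-4 alone and lowest with IL-4+IL-6.

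IL-6 raised Clec4e by 1.75-fold and Clec4n by 1.60-fold, and had smaller effects on the others. In all, 4 of the 6 genes were called, all higher, where 39.3% of all genes tested were called and 16.1% were called higher. Clec4e had 10.58, 10.54, 10.33, 10.27 and 10.30 with IL-6, against 9.12 to 10.19 in unstimulated cells, and the groups did not overlap. The log2 difference was 0.81 ± 0.19 (adjusted p = 0.00114), and 1.11 ± 0.18 within the first set (adjusted p = 6.64e-05). Clec4n had 10.31, 10.22, 9.88, 9.97 and 9.61 with IL-6, against 8.85 to 9.62 in unstimulated cells. Its highest unstimulated array, of the second set, lay just above its lowest IL-6 array, and the difference was 0.68 ± 0.16 (adjusted p = 0.00152). Within the first set the unstimulated values (8.85 to 9.53) lay below all IL-6 values, and the Clec4n difference was 0.80 ± 0.17 (adjusted p = 0.000825). Clec4a2 was 0.32 ± 0.05 higher and Clec5a 0.22 ± 0.07 higher with IL-6 (adjusted p = 6.31e-06 and 0.0136). Clec4d averaged 13.24 with IL-6 and 13.34 unstimulated, and Clec4b1 10.01 and 9.96, and neither was called (adjusted p = 0.243 and 0.669).

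IL-10 raised Clec4e, Clec4n and Clec4a2, both against all unstimulated arrays and against those of its own set. Against all 8 unstimulated arrays, 5 of the 6 genes were called, all higher, where 37.8% of all genes tested were called and 18.3% were called higher. Clec4e had 10.78, 11.03 and 11.03 with IL-10, above all unstimulated arrays (9.12 to 10.19), and differed by 1.35 ± 0.22 (adjusted p = 2.24e-05). Against the unstimulated arrays of the same set (10.19, 10.04 and 10.06), the difference was 0.85 ± 0.10 (adjusted p = 0.000129). Clec4n had 10.14, 11.09 and 10.82 with IL-10, against 8.85 to 9.62 in unstimulated cells. Its difference was 1.37 ± 0.20 over all arrays (adjusted p = 2.28e-06) and 1.17 ± 0.20 within the second set (adjusted p = 0.00228).

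Clec4a2 was 0.58 ± 0.06 higher with IL-10 (adjusted p = 5.73e-09), and 0.46 ± 0.07 higher within the second set (adjusted p = 0.000974). Clec4b1 (0.32 ± 0.09, adjusted p = 0.0036) and Clec5a (0.23 ± 0.08, adjusted p = 0.0305) were called over all arrays, and neither call held within the second set, where the differences were 0.26 ± 0.10 (adjusted p = 0.105) and 0.13 ± 0.06 (adjusted p = 0.199). Clec4b1 also lost its call without IL-10 replicate 2 (adjusted p = 0.062), and Clec5a without IL-10 replicate 1 (0.147) or replicate 3 (0.0638). Clec4d averaged 13.35 ± 0.03 with IL-10 and 13.34 ± 0.08 unstimulated (SD, n = 3 and 8, adjusted p = 0.966).

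IL-10 and IL-6 were also compared with each other. Over all arrays 3 genes (Clec4n, Clec4b1 and Clec4a2) were called higher with IL-10 than with IL-6, where 11.9% of all genes tested were called and 6.26% were called higher. These groups lie in different sets, and none of the 6 was called in limma once the set was a term in the fit (0 also at an unadjusted p under 0.05). Clec4n averaged 10.68 ± 0.49 with IL-10 and 10.00 ± 0.28 with IL-6 (SD, n = 3 and 5), a difference of 0.69 ± 0.21 (adjusted p = 0.0363) that became 0.37 ± 0.29 with the set term (adjusted p = 0.999). With that term the difference was -0.26 ± 0.27 for Clec4e and 0.07 ± 0.07 for Clec4a2 (adjusted p = 0.999 for both). Clec4b1 lost its call with a block for the replicate number too (0.25 ± 0.10, adjusted p = 0.0714). Without IL-10 replicate 2 all 3 calls were lost (adjusted p = 0.23 for Clec4n, 0.259 for Clec4b1 and 0.108 for Clec4a2). The Clec4n call was also lost without IL-10 replicate 3 or IL-6 replicate 3, 4 or 5 (0.0606 to 0.0979). That of Clec4b1 was also lost without IL-10 replicate 3 (0.132), any IL-6 array (0.0532 to 0.085), or 1 of the arrays of other groups IL-4+IL-10 replicate 2, IL-4+IL-6 replicate 2, 3 or 4, IL-4 replicate 4 and unstimulated replicate 3 (0.0501 to 0.0529).

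**Figure D2:**
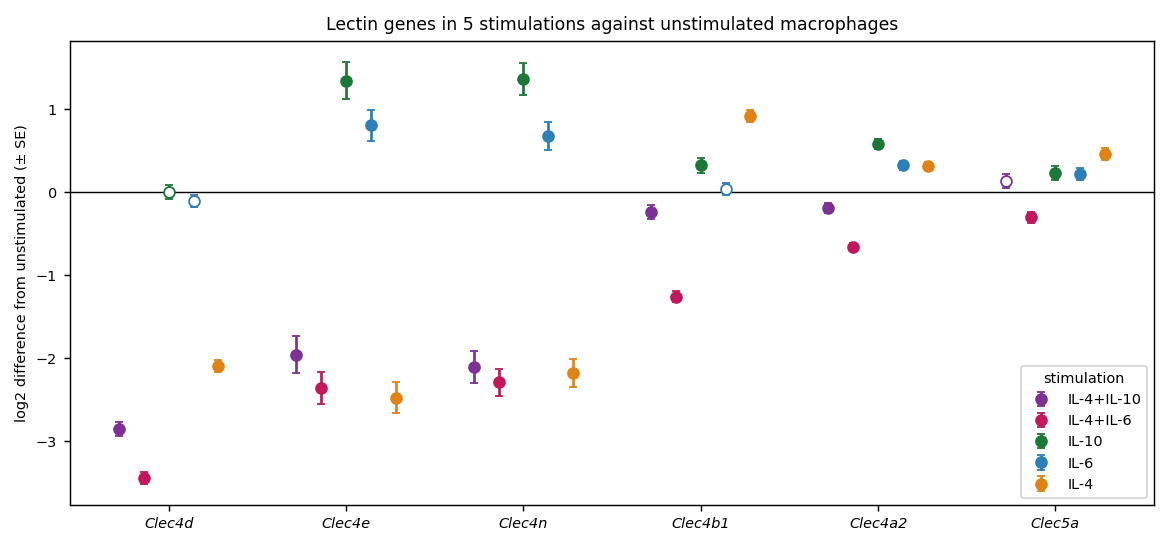
Log2 difference from unstimulated cells (± SE, limma) of each lectin gene in the 5 stimulations, with filled points for adjusted p under 0.05 and open points for the rest. Clec4e and Clec4n lie above 0 with IL-10 and IL-6 and near -2 with IL-4 alone or in combination, and Clec4d is lowest with IL-4+IL-6 at -3.44.

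When IL-4 was given together with IL-6, all 6 lectin genes were lower than in unstimulated cells, where 73.8% of all genes tested were called and 38.8% were called lower. Clec4d had 10.16, 9.98, 9.91, 9.77 and 9.71 with IL-4+IL-6, against 13.24 to 13.47 in unstimulated cells. This was a 10.8-fold fall (log2 difference -3.44 ± 0.07, adjusted p = 5.1e-25), and no IL-4+IL-6 array reached an IL-4 array. The log2 difference was -2.36 ± 0.19 for Clec4e and -2.29 ± 0.16 for Clec4n (adjusted p = 7.48e-12 and 6.87e-13). Clec4e averaged 7.24 with IL-4+IL-6, against 9.30 on the unstimulated arrays of the first set. Clec4b1 had 8.90, 8.77, 8.68, 8.59 and 8.60 with IL-4+IL-6, against 9.87 to 10.12 in unstimulated cells and 10.69 to 11.17 with IL-4, so that its lowest levels of any group stood beside its highest. Its log2 difference was -1.26 ± 0.07 (adjusted p = 4.48e-15), that of Clec4a2 -0.66 ± 0.05 (adjusted p = 2e-12) and that of Clec5a -0.30 ± 0.07 (adjusted p = 4e-04), the last with arrays that overlapped the unstimulated ones.

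With IL-4+IL-10, 5 of the 6 genes were called lower than in unstimulated cells, where 72.1% of all genes tested were called and 34.0% were called lower. Clec4d had 10.65, 10.64 and 10.18 and fell by 2.85 ± 0.09 (adjusted p = 4.95e-21). Clec4e had 7.54, 7.83 and 7.55, and Clec4n had 6.94, 7.38 and 7.32. All these values lay below every unstimulated array, with differences of -1.96 ± 0.22 and -2.11 ± 0.20 (adjusted p = 1.39e-08 and 2.29e-10). Clec4e averaged 7.64 with IL-4+IL-10, against 10.10 on the unstimulated arrays of the second set. Clec4b1 differed by -0.23 ± 0.09 (adjusted p = 0.0164) and Clec4a2 by -0.19 ± 0.06 (adjusted p = 0.00592). The Clec4b1 call was lost without IL-4+IL-10 replicate 1 (-0.17, adjusted p = 0.133), and that of Clec4a2 was lost when its probe sets were averaged (-0.10, adjusted p = 0.18) and was -0.31 ± 0.07 within the second set (adjusted p = 0.00362). Clec5a averaged 8.61 ± 0.01 with IL-4+IL-10 and 8.48 ± 0.16 unstimulated (SD, n = 3 and 8), which was not called (adjusted p = 0.143) but was with a block for the replicate number (0.19 ± 0.08, adjusted p = 0.0287). That block joins same-numbered arrays of both sets, which are not pairs, and within the second set the difference was 0.03 ± 0.06 (adjusted p = 0.69).

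Adding IL-6 to IL-4 lowered 4 of the 6 genes further, where 60.5% of all genes tested were called and 31.2% were called lower. These were Clec4b1 (4.52-fold lower, log2 difference -2.18 ± 0.08, adjusted p = 5.31e-19), Clec4d (-1.34 ± 0.08), Clec4a2 (-0.98 ± 0.06) and Clec5a (-0.77 ± 0.08). Clec4e averaged 7.24 ± 0.46 with IL-4+IL-6 and 7.12 ± 0.37 with IL-4 (SD, n = 5 each, adjusted p = 0.657). Clec4n averaged 7.03 ± 0.31 and 7.14 ± 0.28 in these groups (log2 difference -0.11 ± 0.18, adjusted p = 0.617). With the replicate number as a block within the first set, the same Clec4n difference was called (-0.11 ± 0.04, adjusted p = 0.0198).

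Adding IL-10 to IL-4 lowered the same 4 genes, where 57.3% of all genes tested were called and 24.6% were called lower. The log2 differences were -1.15 ± 0.09 for Clec4b1, -0.76 ± 0.09 for Clec4d, -0.51 ± 0.06 for Clec4a2 and -0.32 ± 0.09 for Clec5a (adjusted p = 4.75e-11, 1.36e-07, 2.2e-07 and 0.00357). Clec4e was at 7.64 ± 0.16 with IL-4+IL-10 and 7.12 ± 0.37 with IL-4 (adjusted p = 0.0689), and it was called with a block for the replicate number (0.37 ± 0.16, adjusted p = 0.0419) and without IL-4 replicate 3 (0.63 ± 0.25, adjusted p = 0.0339). These groups lie in different sets, and once the set was a term in the fit the Clec4e difference was -0.28 ± 0.27 (adjusted p = 0.454) and that of Clec5a -0.50 ± 0.12 (adjusted p = 0.00245).

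Seen from the other side, IL-4 lowered all 6 genes in the presence of IL-6 (66.9% of all genes tested were called, 32.9% lower) and 5 of 6 in the presence of IL-10 (59.9% called, 28.1% lower). The falls were largest for Clec4n with IL-10 (11.1-fold), Clec4d with IL-6 (10.1-fold), Clec4e with IL-10 (9.86-fold) and Clec4e with IL-6 (8.98-fold). Clec5a averaged 8.61 with IL-4+IL-10 and 8.71 with IL-10, and was not called (adjusted p = 0.437). Between the combinations, 4 genes were called higher with IL-4+IL-10 than with IL-4+IL-6 (42.8% of all genes tested were called, 26.9% higher), led by Clec4b1 at 9.73 ± 0.12 and 8.71 ± 0.13 (SD, n = 3 and 5, log2 difference 1.02 ± 0.09, adjusted p = 3.19e-09). The others were Clec4d (0.59 ± 0.09), Clec4a2 (0.47 ± 0.06) and Clec5a (0.44 ± 0.09), but the combinations lie in different sets. With a term for the set the Clec5a call was lost (0.27 ± 0.12, adjusted p = 0.14) and the Clec4a2 difference was 0.28 ± 0.07 (adjusted p = 0.00938).

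The interaction sets the combination against the sum of the single effects, and 0 means that log2 effects add. All 6 genes lay below 0 for both partners of IL-4. For IL-6, 5 were called lower, where 40.0% of all genes tested were called and 18.6% were called lower. For IL-10, the same 5 were called lower, where 25.6% were called and 10.1% were called lower. The IL-10 interaction spans both sets, with IL-4 alone in the first and IL-10 and IL-4+IL-10 in the second. It cannot be estimated within a set. Lower calls for both interactions were made for 7.73% of all genes tested.

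Clec4b1 had the interactions farthest from 0. With IL-4+IL-6 it was at -1.26 relative to unstimulated cells, whereas its single effects sum to 0.96, an interaction of -2.22 ± 0.11 (adjusted p = 1.65e-15). With IL-4+IL-10 it was at -0.23, against a sum of 1.24 (-1.48 ± 0.12, adjusted p = 1.34e-09). IL-4 added to IL-6 thus gave a lower level (-1.30), and IL-4 alone a higher one (0.92).

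Clec4a2 and Clec5a showed the same change of sign with IL-6. For Clec4a2, IL-4 added to IL-6 gave -0.98 and IL-4 alone gave 0.32, an interaction of -1.30 ± 0.07 (adjusted p = 6.03e-14), and for Clec5a the values were -0.53 and 0.46 (-0.99 ± 0.11, adjusted p = 1.86e-08). All 3 genes were called higher with IL-4 and lower with IL-4+IL-6 against unstimulated cells, a pattern found in 3.08% of the 7153 genes and described after its values were seen.

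For Clec4e and Clec4n, the differences made by IL-10 and IL-6 were smaller in the presence of IL-4. Clec4n differed with IL-10 by 0.07 in the presence of IL-4 and by 1.37 in its absence (interaction -1.29 ± 0.29, adjusted p = 0.00139), and with IL-6 by -0.11 and 0.68 (-0.79 ± 0.24, adjusted p = 0.0113). With a term for the set, the 0.07 became -0.25 ± 0.29 (adjusted p = 0.55). The Clec4e interactions of -0.69 ± 0.28 with IL-6 and -0.83 ± 0.33 with IL-10 were not called (adjusted p = 0.0528 and 0.066). Both were called when the fit held the set and a random block for the replicate number within it, at -0.99 ± 0.18 and -1.13 ± 0.20 (adjusted p = 3.58e-05 and 8.97e-05). That random block left unstimulated replicates 6 to 8 unpaired. Both interactions were called too with the replicate number as a block over all arrays (adjusted p = 0.000158 and 0.000385). Both were also called without IL-4+IL-6 replicate 1, IL-4 replicate 5 or unstimulated replicate 6, 7 or 8 (0.0149 to 0.0341 with IL-6 and 0.0277 to 0.0481 with IL-10), and the IL-6 one without IL-4+IL-6 replicate 2 (0.0455). In a limma fit of every probe set, unfiltered, the second Clec4e probe set was called with IL-6 and IL-10 (-0.77 ± 0.24 and -1.15 ± 0.28, adjusted p = 0.0186 and 0.00642). The second Clec4n probe set was called there with IL-6 (-0.84 ± 0.30, adjusted p = 0.043) and not with IL-10 (-0.98 ± 0.35, adjusted p = 0.0712). Values near the low end in the IL-4 groups can limit these interactions, and how far they do was not tested. Clec4e and Clec4n were the members called lower with IL-4 and higher with both IL-6 and IL-10, as were 4.67% of all genes tested.

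**Figure D3:**
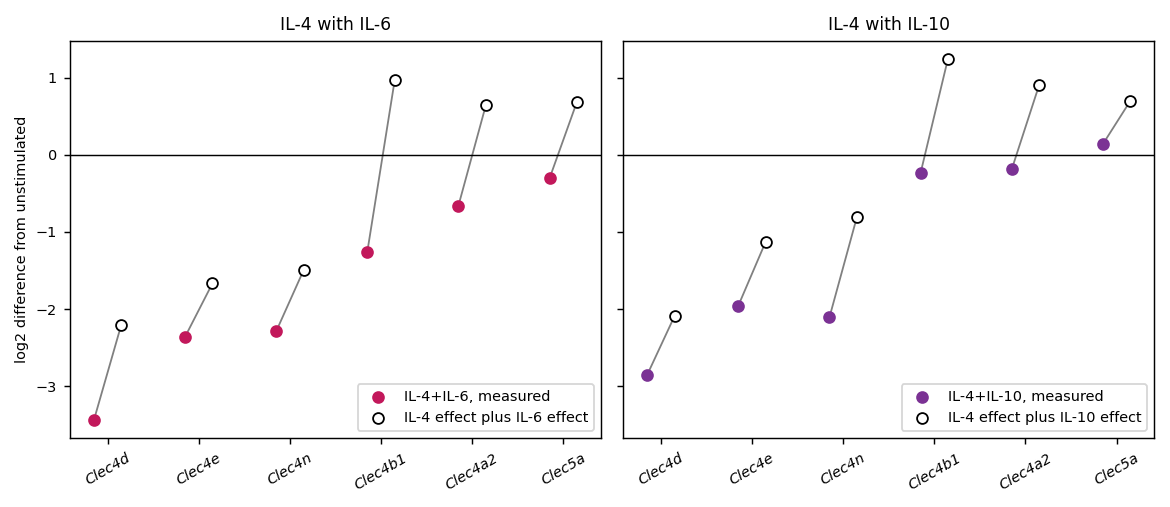
Measured log2 difference of each combination from unstimulated cells (filled points) beside the sum of the effects of its single cytokines (open points), joined by a line per gene. Every filled point lies below its open partner, and for Clec4b1, Clec4a2 and Clec5a with IL-6, and Clec4b1 and Clec4a2 with IL-10, the line crosses 0.

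Same-numbered arrays of the first set deviated together. Clec4n deviated from its group mean by 0.31 to 0.38 on replicate 1 of all 4 groups, and by -0.42 to -0.34 on replicate 5 (log2 scale). Clec4e shared the sign of the deviation on replicate 1 (0.04 to 0.63) and on replicate 5 (-0.60 to -0.11). Clec4d deviated by less, between -0.19 and 0.25 over all numbers.

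**Figure D4:**
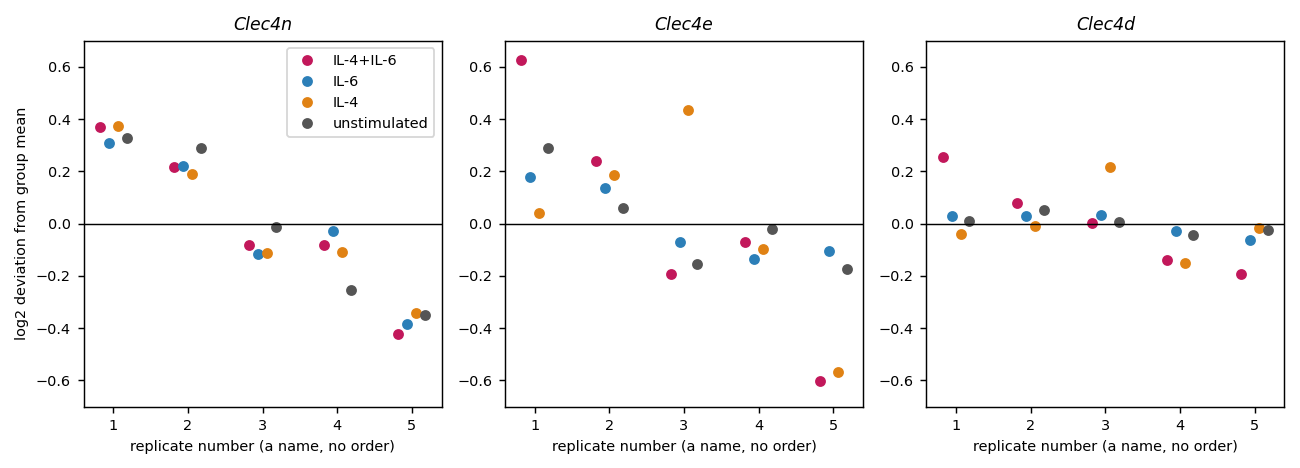
Log2 deviation of each first-set array from its group mean, by replicate number, for Clec4n, Clec4e and Clec4d, with a colour per stimulation. Clec4n has the same sign in all 4 groups at each number, between -0.42 and 0.38.

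Over the 29 arrays the members fell into groups of likeness that were not fully apart. Clec4e and Clec4n correlated at r = 0.983, Clec4d and Clec4n at 0.910 and Clec4d and Clec4e at 0.897, while Clec4b1 and Clec4a2 correlated at 0.862, Clec4b1 and Clec5a at 0.834 and Clec4a2 and Clec5a at 0.786. Between these groups r ran from 0.128 (Clec4e and Clec5a) to 0.668 (Clec4d and Clec4a2), with Clec4a2 at 0.624 with Clec4n and 0.581 with Clec4e. Deviations from group means followed the groups only in part. Their r was 0.677 for Clec4e and Clec4n and 0.656 for Clec4d and Clec4e, but 0.334 for Clec4d and Clec4n. It was 0.742 for Clec4n and Clec4a2, 0.708 for Clec4n and Clec4b1, and -0.038 for Clec4b1 and Clec5a. These are descriptions without a test, since the arrays share groups and sets. Among the genes outside the 6, the pattern most like Clec4d was that of Smpdl3a (r = 0.991), followed by Sorl1 and Cd14, the co-receptor for lipopolysaccharide (0.989). Ptpn18 was most like Clec4e (0.985), Apoc2 most like Clec4n (0.985), and Sla, an adapter that restrains receptor signalling in lymphocytes, most like Clec4b1 (0.947), Clec4a2 (0.921) and Clec5a (0.884).

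The second probe sets moved in the same direction against unstimulated cells in all 5 stimulations. With IL-4, that of Clec4n differed by -2.68 ± 0.20 and that of Clec4e by -1.47 ± 0.16, a smaller difference than the first's, on arrays whose unstimulated values (6.50 to 7.54) span the median of all values. That of Clec4a2 differed by -0.01 ± 0.08 with IL-4+IL-10 (adjusted p = 0.938), where the first gave a call. Probe sets of Clec4n and Clec4d are of a type (_s_at) that can match transcripts of related genes, so their signal may not be theirs alone.

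Most measured genes of the signalling chain below these lectins were called lower with IL-4, while the largest difference in it was a rise (Prkcd). Of 16 adapters and kinases, 12 were measured and tested. With IL-4, 9 were called lower and 2 higher, where 31.9% of all genes tested were called lower and 27.6% higher. Their median was -0.21, beside -0.01 over all genes tested. Fcer1g, the chain shared by Mincle, MCL, Dectin-2 and DCAR, differed by -0.29 ± 0.03, Tyrobp by -0.18 ± 0.03 and Syk by -0.14 ± 0.06 (adjusted p = 5.15e-09, 6.76e-06 and 0.0258). The kinase Fgr was lower (-0.75 ± 0.07), as was the exchange factor Vav1 (-0.59 ± 0.04), while Prkcd, the kinase between Syk and the Card9 complex, rose by 1.19 ± 0.06 and Src by 0.37 ± 0.06. With IL-6, 5 were called higher and 2 lower, where 39.3% of all genes tested were called and 16.1% were called higher. With IL-10, 6 were called higher and 1 lower, where 37.8% were called and 18.3% were called higher. These shares also stand beside the counts of the gene lists further below. Against the unstimulated arrays of the second set, where 19.5% of all genes tested were called, IL-10 gave 3 higher and 1 lower, without the calls of Fcer1g, Plcg2 and Src. Fgr rose with IL-6 (0.88 ± 0.07) and IL-10 (0.75 ± 0.09), Vav1 rose with both (0.54 ± 0.04 and 0.64 ± 0.05), and Prkcd fell with both (-0.37 ± 0.06 and -0.53 ± 0.07).

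With IL-4+IL-6, 9 of the 12 were lower and 2 higher, where 73.8% of all genes tested were called and 38.8% were called lower. With IL-4+IL-10, 8 were lower and 3 higher, where 72.1% were called and 34.0% were called lower. Within the sets, where 74.5% and 59.7% of all genes tested were called, the higher counts were 1 and 2. The Prkcd difference with IL-4+IL-6 (0.14) was not called within the first set (0.09 ± 0.05, adjusted p = 0.129). Btk differed with IL-4+IL-10 by 0.47 from all unstimulated arrays and by 0.03 ± 0.06 within the second set (adjusted p = 0.649), its unstimulated level being 10.53 in the second set and 9.83 in the first. Src was 1.46 ± 0.06 and 1.42 ± 0.07 higher in these groups, and Tyrobp was lower in both (-0.54 ± 0.03 and -0.32 ± 0.03). Of the 3 phosphatases that act on such receptors, Ptpn6 (SHP-1), which DCIR recruits, fell with IL-4 (-0.83 ± 0.04), IL-4+IL-6 (-1.14 ± 0.04) and IL-4+IL-10 (-0.92 ± 0.05). Inpp5d (SHIP) was called lower in the same 3 groups, and Ptpn11 (SHP-2) with IL-6 and IL-4+IL-6, the IL-6 call being lost within the first set (-0.08 ± 0.04, adjusted p = 0.167).

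**Figure D5:**
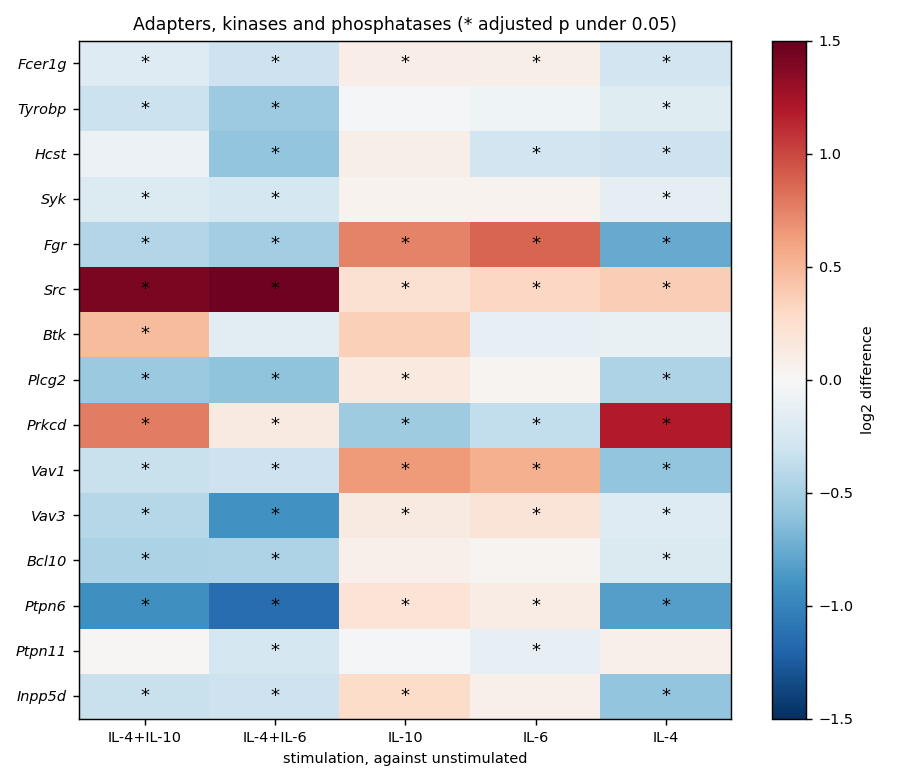
Log2 difference from unstimulated cells of 12 adapters and kinases and 3 phosphatases (rows) in 5 stimulations (columns), as a colour scale cut at -1.5 and 1.5, with stars for adjusted p under 0.05. Src and Prkcd are above 0 in the 3 columns with IL-4, where 8 to 9 of the 12 adapters and kinases are called lower against all unstimulated arrays.

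Other activating lectins and TREM receptors moved in both directions. Of 11, 7 were measured and 4 tested, with 2 called higher and 1 lower with IL-4. Clec7a (Dectin-1), the receptor for fungal beta-glucans, rose by 0.47 ± 0.08 with IL-4 and fell with IL-6 (-1.03 ± 0.08) and IL-10 (-1.47 ± 0.09) (adjusted p = 8.72e-06, 1.45e-11 and 4.65e-13), the opposite signs to Clec4n and Clec4e. Its unstimulated level was 13.08 in the second set and 13.45 in the first. Within the sets the Clec7a differences were 0.33 ± 0.06, -1.17 ± 0.06 and -1.24 ± 0.06. Of 7 further lectin genes of the family, 2 were measured, Clec4f and Clec4g, which are not among the cluster's neighbours, and both stayed under the filter, with group means of 5.08 to 5.63.

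Of 16 cytokines, chemokines and enzymes known as products of lectin signalling, 8 were tested, and 5 were called lower and 3 higher with IL-4. Il1b fell by 1.20 ± 0.13 with IL-4 and rose by 1.33 ± 0.13 with IL-6 and 2.24 ± 0.16 with IL-10, and Cxcl2 fell by 1.99 ± 0.14 on the same scale with IL-4 (adjusted p = 8.84e-09, 2.9e-09, 3.74e-12 and 1.1e-12). Ccl2 went the other way, at 1.50 ± 0.17 higher with IL-4 and 3.34 ± 0.17 higher with IL-4+IL-6. With IL-6 and with IL-10, 4 of the 8 were higher and 1 lower, and with IL-10 within the second set 3 were higher and 2 lower.

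Of 9 transcription regulators, 6 were lower and 1 higher with IL-4. Cebpd, a C/EBP factor, differed by -0.77 ± 0.10 with IL-4 and was 0.60 ± 0.10 higher with IL-6 and 1.91 ± 0.10 higher with IL-4+IL-6. Stat3 was 1.01 ± 0.05 higher with IL-6 and 0.78 ± 0.05 higher with IL-4+IL-6 (adjusted p = 2.35e-15 and 6.15e-14). Spi1, which encodes PU.1, averaged between 10.87 and 11.13 in the 6 groups. A role of these regulators in the lectin levels was not tested.

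In RNA from whole cultures, fewer cells of a type and less RNA per cell cannot be told apart. Neutrophils also express Mincle, MCL and Dectin-2, and of 12 neutrophil markers 10 were measured and 7 tested, with 5 lower with IL-4. With IL-6, 2 were higher (Csf3r and Mmp8) and the other 5 had differences of -0.26 to -0.16 that were not called. Their summed intensity was 5700 to 7437 on the IL-4 arrays and 7739 to 11953 on the unstimulated ones, and S100a8 averaged 11.05 and 11.68 in these groups. Elane, Mpo and Cxcr2 were under the filter in all groups, with means of 4.48 to 6.60, while S100a9 (11.51), Ngp (10.35), Csf3r (8.99) and Ltf (8.79) had the unstimulated means given. The macrophage markers moved too, with 9 of 9 lower with IL-4 and 6 of 9 higher with IL-6 and with IL-10 (4 of 9 with IL-10 within the second set); Fcgr1 averaged 8.78 with IL-4 and 11.05 without. Of 8 dendritic cell markers, 3 were tested and 2 rose with IL-4, while Flt3, Zbtb46 and Xcr1 were under the filter. Among those that rose, Itgax averaged 12.88 with IL-4, 11.02 on all unstimulated arrays and 11.26 on those of the first set.

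Monocyte markers (3 of 6 tested) had 1 higher and 1 lower with IL-4, the higher being Chil3, itself a target of IL-4. B lineage markers (4 of 7 tested) had 3 called lower with IL-10 and 4 with IL-4+IL-10 against all unstimulated arrays. Against those of the second set, 3 were called lower with IL-4+IL-10, where 59.7% of all genes tested were called. With IL-10, where 19.5% were called, 0 of these markers were called lower (limma, 0 also at an unadjusted p under 0.05). Jchain, for one, averaged 5.76 with IL-10, against 5.81 on unstimulated replicates 6 to 8 and 7.96 on replicates 1 to 5. The 4 measured T and NK cell markers were all under the filter, as were 4 of the 5 measured mast cell, basophil and eosinophil markers. The difference between the 3' and 5' probe sets of Actb, a sign of RNA quality, averaged 0.42 with IL-4+IL-10 and 0.34 with IL-10, against 0.44 on the unstimulated arrays of the second set (log2). It averaged 0.36 with IL-4+IL-6, 0.25 with IL-6 and 0.32 with IL-4, against 0.32 on those of the first set, and its SD within these groups was 0.0089 to 0.0699. The part of these marker and quality differences in the lectin results was not tested.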

How the data were processed

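Log2 intensities of 22690 probe sets on 29 arrays were used as deposited. The authors made them with RMA (background correction, quantile normalization and 1 log2 value per probe set), per the submitters' processing notes, which also name GCOS 1.4. Whether all arrays were normalized together is not given in the sources used here. Array medians ran from 6.94 to 7.04 and correlations between arrays from 0.973 to 0.998, and the number of arrays limits the precision.

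GEO's platform annotation named 1 gene for 20380 probe sets, several for 691 and none for 1606, and 20351 were found in the reference table. The probe set with the highest mean stood for a gene. Genes with at least 3 arrays above the median of all values (6.99) were tested, 7153 of 12393. One mean per group was fitted with limma 3.58.1 (R 4.3.3), with 13 comparisons and Benjamini-Hochberg adjustment at 0.05. On simulated data for IL-4 against unstimulated, 97% of 200 changed genes were recovered at a log2 change of 0.5 and 100% at 1, with 5 and 8 false calls. The simulated arrays held no differences by set or replicate number, so these shares may not hold for the measured arrays.

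Within the first set, same-numbered arrays correlated in their deviations from group means (30 pairs, r 0.415 to 0.700), as they did in the second (3 pairs, 0.596 to 0.776). Across sets, same-numbered arrays ran from -0.685 to 0.518, with a median of -0.331. The numbers thus pair arrays within the first set and, in the second, only IL-10 with IL-4+IL-10. Unstimulated arrays of the second set carry other numbers, so the numbers give them no partner. Different-numbered pairs of the second set, which include them, ran from -0.52 to 0.451. The main fit had no term for the replicate number, so its p-values take the arrays as unpaired. The members and lists were chosen with earlier results of these data known. Named genes were the members and, per list, up to 4 called genes with the largest differences, with further list genes named for their role after values were seen. Alternatives covered normalization, filters, probe sets, variance model, sets, blocks and leaving out each array.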

Additional observations from a re-analysis of the deposited data

Results flagged for a closer look

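The effect of IL-4 differed with and without a second cytokine for 5 of the 6 lectin genes, by the limma interaction test. Of all genes tested, 40.0% were called for the interaction with IL-6, 25.6% with IL-10 and 7.73% lower for both. Clec4e was not called in the main fit. It was called for both in limma with the set term (adjusted p = 0.00123 and 0.00285) and with its probe sets averaged (0.0183 and 0.0124). With IL-6 as the second cytokine, the interaction was -2.22 for Clec4b1, -1.30 for Clec4a2, -1.23 for Clec4d, -0.99 for Clec5a and -0.79 for Clec4n on the log2 scale. With IL-10, where the groups span both sets, it was -1.48 for Clec4b1, -1.29 for Clec4n, -1.09 for Clec4a2, -0.76 for Clec4d and -0.56 for Clec5a. For Clec4d, adding IL-6 to IL-4 gave -1.34 and IL-6 alone gave -0.11. In the 4 groups of 5 or more arrays, no value of the 6 genes stood far from the rest of its group (24 sets of values examined), and the IL-10 and IL-4+IL-10 groups, with 3 arrays each, were not examined.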

How the results depend on the processing

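Of the 62 differences of single lectin genes that were called, 727 of 749 values under other settings and 1775 of 1798 without 1 array were called in the same direction, and none reversed. The number of called genes moved by over 1.5 times in 2 comparisons. For IL-10 against unstimulated it was 3 in place of 5 with a term for the array set, within the second set, and with the term and a random replicate block. For IL-10 against IL-6 it was 1 in place of 3 with no filter, 0 with the set term, 0 with the term and random block, and 0 to 3 without 1 array. With the replicate block over all arrays, that count over all genes tested was 1788 in place of 850, and with the set term it was 7. The set term gave 2370 in place of 4100 calls for IL-4+IL-10 against IL-4 and 1159 in place of 3063 for the combinations, and the second set alone gave 1394 in place of 2704 for IL-10 against unstimulated. The filter at the 75th percentile gave fewer calls because fewer genes were tested (4181), with 2747 in place of 4254 for IL-4 and 3301 in place of 5281 for IL-4+IL-6.

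Reversals were found among differences that were not called. With the set term, with or without the random block (an addition chosen after seeing the data), the log2 difference was -0.0829 for Clec4d in IL-10 against unstimulated (also -0.0829 within the second set), -0.28 for Clec4e and -0.25 for Clec4n in IL-4+IL-10 against IL-4, -0.0277 for Clec4d, -0.26 for Clec4e and -0.16 for Clec5a in IL-10 against IL-6, and -0.39 for Clec4e and -0.13 for Clec4n in IL-4+IL-10 against IL-4+IL-6. With the replicate block, Clec4n was at -0.0934 in IL-4+IL-10 against IL-4 and Clec5a at -0.0014 in IL-10 against IL-6. Without 1 array, the ranges were -0.0097 to 0.0244 for Clec4d in IL-10 against unstimulated, -0.0408 to 0.27 for Clec4e in IL-4+IL-6 against IL-4, -0.0145 to 0.21 for Clec4n in IL-4+IL-10 against IL-4 and -0.0354 to 0.0444 for Clec5a in IL-10 against IL-6. The cause was not tested. Apart from the calls given with the results, the replicate block changed no call of a lectin gene. Low signal may limit the Clec4e and Clec4n differences in the IL-4 groups, which was not tested. The counts of list genes within each array set were also added after seeing the data.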
